A study of Mus musculus with 3 samples.

Results

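Fasn, Acaca, Acacb, Acly, Scd1, Elovl6, Me1, Gpam, Thrsp and Pnpla3 are linked to fatty acid and triglyceride synthesis in the liver. Most act in fatty acid synthesis, and Gpam starts the assembly of glycerolipids. Other genes of triglyceride synthesis are read as a separate list. The levels of the 10 genes were examined in mouse liver expressing 1 of 3 forms of human YAP. YAP is the coactivator held in check by the Hippo pathway. The 10 genes were taken by name, with earlier results of these data known, and 17 probes on the array matched them through their RefSeq entry. Of these, 15 probes of 9 genes were well above background on all 3 arrays, against 13626 named genes measured on all 3 arrays in the whole data set. Pnpla3 was the gene not measured throughout.

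All 3 livers came from c57BL6/J mice 2 days after a plasmid was delivered by hydrodynamic tail vein injection (HTVi). The plasmid encoded 1 of 3 versions of human YAP, namely the wild type (WT) and 2 mutants, 1SA and 2SA, which the study treats as active forms. The methods describe mainly male mice aged 8 weeks. The vector joins an AFP enhancer to a minimal albumin promoter, so expression was directed to hepatocytes, and HTVi reaches a part of them, so that RNA of hepatocytes with and without the transgene was mixed on each array. The WT array was therefore also a liver that had been injected and that expressed YAP, and no uninjected liver was used here. Each group held 1 array, and the labels do not say whether it held RNA of 1 mouse or of a pool. No spread between mice could be estimated, no test was possible and no p-value is given. Both differences from WT share the single WT array. In RNA of whole liver, fewer cells of a type and less RNA per cell cannot be told apart.

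The transgene is human and the array carries mouse probes, so the labels could not be checked on YAP itself. The mouse Yap1 probe gave log2 differences from WT of -0.13 for 1SA and -0.21 for 2SA. Of 3 well-known YAP target genes, chosen with their values known, Ccn2 had intensities (spot brightness, not scaled between arrays) of 633 in WT, 441 in 1SA and 3092 in 2SA, Ccn1 had 356, 507 and 1453, and Ankrd1 had 36.5, 12.1 and 39.7. After each array was scaled to its 75th percentile, Ccn2 and Ankrd1 were below WT on the array labelled 1SA, at -0.44 and -1.52 on the log2 scale, and Ccn1 was above it at 0.59. Ankrd1 was dim on the 1SA array, with a scaled log2 level of -4.51 where the lowest measured level was -4.75. Ccn2 is also called Ctgf. By real-time PCR the paper reports raised Ctgf for all its active mutants, at the same time after injection as here. It also places their protein in the nucleus, and reports that hepatocytes expressing these mutants, 1SA among them, became fewer on later days. The 3 targets went different ways on the 1SA array, so they did not settle its label as an active form. Every 1SA value given here is that of the array so labelled. On the 2SA array Ccn1 and Ccn2 were above WT, at 1.89 and 2.15, and Ankrd1 was at -0.02.

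De novo lipogenesis turns surplus carbohydrate into fat. Citrate leaves the mitochondrion and is cleaved to acetyl-CoA, which is carboxylated to malonyl-CoA and then built into palmitate with reducing power from NADPH. Palmitate is elongated, desaturated and esterified to glycerol. In the liver most of these genes are known targets of SREBP1c, the sterol regulatory element binding protein that acts under insulin, and of ChREBP, encoded by Mlxipl, which responds to glucose.

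All 9 measured genes had a higher level in 1SA than in WT, beside 49.7% of all named genes. Of the 9, 7 were higher by at least 1.5-fold, beside 3.08% of all genes. They were Scd1, Acacb, Fasn, Thrsp, Elovl6, Me1 and Acly, of which Acly dropped below 1.5-fold under quantile normalisation (0.57 on the log2 scale) and with the average of its probes (0.50). All 9 were also higher in 2SA than in WT, beside 43.6% of all genes. Of these, Me1 at 0.01 and Acly at 0.18 on the log2 scale were below 2 SDs of the spot error. By at least 1.5-fold, 4 of the 9 were higher, namely Fasn, Thrsp, Acaca and Acacb, beside 3.79% of all genes. After scaling, the level of 8 of the 9 genes was highest in 1SA, with Acaca as the exception. For both Acaca and Gpam the gap between 1SA and 2SA was below 2 SDs of the spot error. The levels of Srebf1, Mlxipl and Nr1h3, the factors known to drive these genes, differed by 0.10 or less on the log2 scale from WT on either array.

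Levels are given as spot intensity, the background-subtracted brightness on a linear scale, which was not scaled between arrays. Differences are differences of log2 intensity after each array was set to its 75th percentile, an intensity of 290.8, 275.7 and 319.5 for WT, 1SA and 2SA in turn. Probes spotted many times on an array gave the only error. Their SD was 0.07 on the log2 scale, which gives an SD of 0.10 for a difference between 2 arrays, and 2 SDs came to 0.21. This error covers spots alone and not the spread between mice. Each of the 17 probes had 1 spot per array.

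The promoters of the 3 genes that were at least 2-fold higher in 1SA and had an entry in the RefSeq promoter table (build GRCm38.p6) follow, because most lipogenic promoters are known to pair SREBP sites with CCAAT boxes, the sites of the factor NF-Y. Each run holds the 250 bases before the annotated start, 5′ to 3′ on the strand of the gene, and capitals mark CCAAT or its reverse complement ATTGG. The table matched 9 of the 10 genes, all but Scd1. The windows lie at chr11:120824548-120824797 on the minus strand for Fasn, chr5:114165268-114165517 on the plus strand for Acacb, and chr7:97417551-97417800 on the minus strand for Thrsp.
Fasn: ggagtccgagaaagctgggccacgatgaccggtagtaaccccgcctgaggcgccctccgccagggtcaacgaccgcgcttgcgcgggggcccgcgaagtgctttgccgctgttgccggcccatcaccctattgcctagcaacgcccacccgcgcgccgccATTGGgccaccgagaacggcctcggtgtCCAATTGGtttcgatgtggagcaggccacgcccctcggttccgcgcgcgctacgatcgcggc
Acacb: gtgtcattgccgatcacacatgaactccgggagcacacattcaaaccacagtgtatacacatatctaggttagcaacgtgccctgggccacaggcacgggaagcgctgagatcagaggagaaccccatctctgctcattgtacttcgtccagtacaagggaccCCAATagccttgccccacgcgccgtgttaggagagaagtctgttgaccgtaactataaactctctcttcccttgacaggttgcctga
Thrsp: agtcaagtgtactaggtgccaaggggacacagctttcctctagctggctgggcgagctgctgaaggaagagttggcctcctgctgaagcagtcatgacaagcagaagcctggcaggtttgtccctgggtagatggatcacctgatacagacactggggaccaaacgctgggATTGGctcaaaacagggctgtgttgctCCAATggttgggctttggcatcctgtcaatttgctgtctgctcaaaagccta
Fasn held 3 such boxes, of which the downstream 2 overlap, between bases 90 and 55 before the start. Thrsp held 2, between bases 79 and 48, and Acacb held 1, between bases 87 and 83. Over the 11 promoters listed for the 9 genes, 6 promoters of 6 genes held a CCAAT box on either strand, against 33.8% of all 32851 promoters in the table. The other 3 motifs searched on both strands were the GC box GGGCGG, in 4 of 11 promoters against 32.7% of all, the E-box CACGTG, in 0 of 11 against 6.02%, and the SRE-like motif TCACNCCAC, in 0 of 11 against 1.05%. These counts describe letters in 1 window and do not tell whether a factor binds there.

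Acly and Me1 supply the pathway with acetyl-CoA and NADPH. Acly encodes ATP citrate lyase, and its bright probe (NM_001199296) had an intensity of 8972 in WT, 13308 in 1SA and 11152 in 2SA. The log2 difference from WT came to 0.65 for 1SA and to 0.18 for 2SA, the second below 2 SDs of the spot error. A dim Acly probe (NM_134037) had intensities of 60.0 in WT, 72.4 in 1SA and 88.4 in 2SA, with log2 differences from WT of 0.35 and 0.42. The dim probe had a gap of 0.08 between 2SA and 1SA, within the spot error, so it gave no order of the mutants. Both probes placed WT lowest.

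Me1, the cytosolic malic enzyme, had 3 measured probes. Its brightest (NM_001198933) had an intensity of 4978 in WT, 8104 in 1SA and 5506 in 2SA. Against WT the log2 difference was 0.78 for 1SA and 0.01 for 2SA, so that 1SA stood apart and 2SA and WT were alike to within the spot error. The other Me1 probes had intensities of 2703 and 2102 in WT, 4798 and 4023 in 1SA, and 3245 and 2592 in 2SA. Their log2 differences from WT were 0.90 and 1.01 in 1SA, and 0.13 and 0.17 in 2SA, which repeats the order of the brightest probe.

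Acaca and Acacb encode the 2 acetyl-CoA carboxylases. The first makes malonyl-CoA in the cytosol for synthesis, and the second makes it at the mitochondrial surface, where it holds back fatty acid import by Cpt1a. Acacb (NM_133904) had an intensity of 1548 in WT, 4206 in 1SA and 2655 in 2SA. This was 2.87-fold higher in 1SA and 1.56-fold higher in 2SA after scaling, or log2 differences of 1.52 and 0.64. A dim second probe gave 67.8, 212.2 and 123.4, with log2 differences from WT of 1.72 and 0.73. Both Acacb probes placed 1SA highest, then 2SA, then WT.

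Acaca (NM_133360) was the gene with another order. Its brightest probe had an intensity of 3727 in WT, 5123 in 1SA and 6705 in 2SA, with log2 differences from WT of 0.54 in 1SA and 0.71 in 2SA. The difference between 2SA and 1SA was 0.18, below 2 SDs of the spot error. The other Acaca probes had intensities of 73.9 and 32.1 in WT, 86.7 and 48.4 in 1SA, and 132.4 and 58.2 in 2SA. Over the 3 probes the log2 difference from WT ran from 0.31 to 0.67 in 1SA and from 0.70 to 0.72 in 2SA. The carboxylases thus differed in 2SA against 1SA, at 0.18 for Acaca and -0.88 for Acacb on the log2 scale, where 2 differences of this kind have an SD of 0.15 from spots.

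Fasn encodes fatty acid synthase, which builds palmitate from malonyl-CoA. Its probe (NM_007988) had an intensity of 121.3 in WT, 283.1 in 1SA and 250.03 in 2SA. The level was 2.46-fold higher in 1SA and 1.88-fold higher in 2SA than in WT after scaling, or log2 differences of 1.30 and 0.91. The 2SA difference was the largest among the 9 genes on that array. With the local background modelled in place of Agilent's own correction, it was 0.68 for Fasn, below 0.78 for Thrsp. Between the mutants 2SA was lower by a log2 difference of -0.39.

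Scd1 and Elovl6 act on the palmitate that Fasn makes. Scd1 encodes the stearoyl-CoA desaturase of the liver, which makes oleate and palmitoleate, and its probe (NM_009127) had an intensity of 16135 in WT, 43789 in 1SA and 20957 in 2SA. It was 2.86-fold higher in 1SA and 1.18-fold higher in 2SA, or log2 differences of 1.52 and 0.24. The level in 2SA was 0.413 of that in 1SA, a log2 difference of -1.28 and the widest gap between the mutants among the 9 genes. Elovl6, the elongase that takes palmitate to stearate, had intensities of 1725 in WT, 2837 in 1SA and 2585 in 2SA with its probe NM_130450. Against WT this gave log2 differences of 0.79 for 1SA and 0.45 for 2SA.

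**Figure D1:**
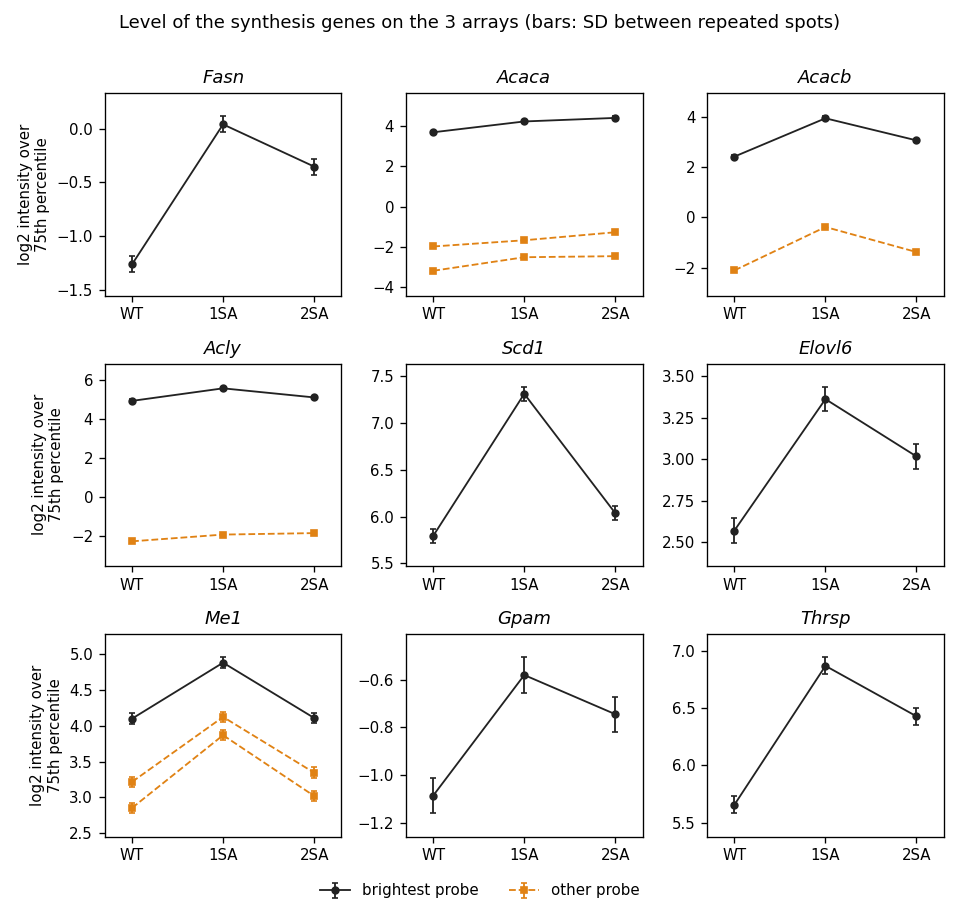
Normalised level of each of the 9 measured genes on the WT, 1SA and 2SA arrays, as log2 intensity over the array's 75th percentile, with a separate vertical scale for each gene. Black points are the brightest probe, orange squares the other measured probes, and bars the SD of 0.07 between repeated spots. WT was lowest for every probe, and 1SA highest for most, with Acaca and the dim Acly probe as exceptions. The gaps of these exceptions to 2SA were mostly below 2 SDs of the spot error.

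Gpam encodes the mitochondrial enzyme for the first step of glycerolipid synthesis, which joins an acyl group to glycerol phosphate. Its probe (NM_008149) had an intensity of 137.1 in WT, 184.3 in 1SA and 190.6 in 2SA. Against WT the log2 difference was 0.50 for 1SA, the smallest among the 9 genes, and 0.34 for 2SA. The 2 mutants differed by -0.16, below 2 SDs of the spot error.

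Thrsp, also called Spot 14, is a small nuclear protein induced by thyroid hormone and carbohydrate that acts together with lipogenesis. Its probe (NM_009381) had an intensity of 14668 in WT, 32216 in 1SA and 27511 in 2SA. It was 2.32-fold higher in 1SA and 1.71-fold higher in 2SA, or log2 differences of 1.21 and 0.77. Its partner Mid1ip1, which activates the carboxylases, showed smaller log2 differences of 0.29 and 0.12.

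Pnpla3 encodes a lipid droplet protein that is a known SREBP1c target. Its brighter probe (NM_054088) had intensities of 6.71 in WT, 11.6 in 1SA and 12.5 in 2SA, and was well above background in 2SA alone. The other probe, at 3.56, 2.96 and 4.18, was not well above background on any array. No fold is given for Pnpla3.

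Counted over the 9 genes, the median log2 difference from WT came to 0.79 for 1SA and 0.45 for 2SA, where the medians over all 13626 genes were -0.002 and -0.03. The 7 of 9 genes higher by at least 1.5-fold in 1SA stand beside 3.08% of all genes, and the 4 of 9 in 2SA beside 3.79%. None of the 9 was lower by that much in 1SA or in 2SA, where 4.67% and 3.02% of all genes were. At 2-fold, 4 of the 9 were higher in 1SA (Scd1, Acacb, Fasn and Thrsp) and 0 in 2SA, where 0.727% and 1.12% of all genes were. The genes are tied to related steps of lipid synthesis and were read from the same arrays, so they are not independent of each other. They were also chosen with earlier results of these data known, so the shares of all genes are no test of the list. Each of the 15 measured probes was above WT on both mutant arrays. In 2SA the Me1 probes and the bright Acly probe were above it by less than 2 SDs of the spot error.

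**Figure D2:**
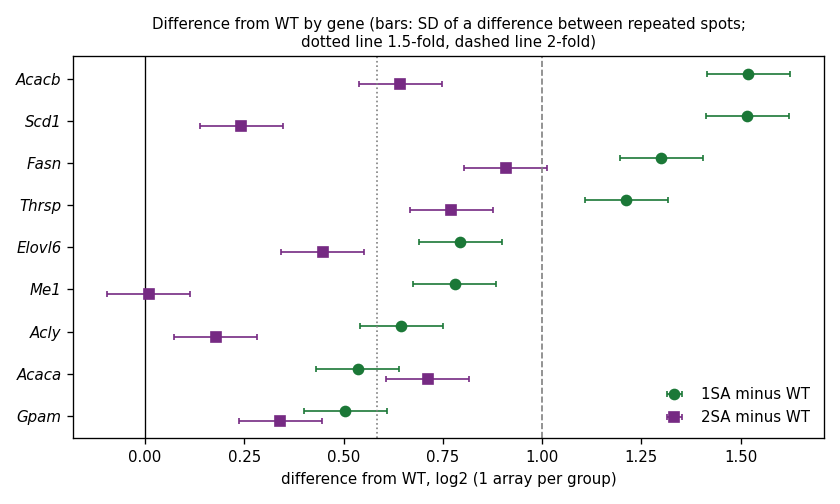
Log2 difference from WT of the brightest probe of each of the 9 measured genes, for 1SA (green circles) and 2SA (purple squares), with bars of 1 SD of a difference between repeated spots (0.10) and lines at 1.5-fold and 2-fold. Acacb and Scd1 were highest in 1SA at 1.52, and Me1 and Scd1 lay nearest to WT in 2SA.

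Set directly against each other, 2SA was lower than 1SA for 8 of the 9 genes, with a median log2 difference of -0.44 beside -0.03 over all genes. Among all genes, 45.6% were higher in 2SA than in 1SA. The hepatocyte markers were also lower in this comparison, 11 of 12 of them, with a median of -0.27. That median was -0.04 under quantile normalisation, and the part of these markers in the result was not tested. For the synthesis genes 2SA was lower by at least 1.5-fold for Scd1 at -1.28, Acacb at -0.88 and Me1 at -0.77, which is 3 of 9 beside 4.56% of all genes. At 2-fold, Scd1 alone was lower, beside 1.12% of all genes. None of the 9 was higher in 2SA by 1.5-fold, where 6.99% of all genes were. With the scaling of the authors' matrix these shares of all genes were 3.41% lower and 8.34% higher. Within 2SA the 9 genes ran without a break from 0.01 above WT for Me1 to 0.91 for Fasn on the log2 scale. Of the 15 measured probes, 11 were lower in 2SA than in 1SA and 4 were higher, the 4 being the Acaca probes and the dim probe of Acly. Of the 4, the Acaca probe at 0.40 was above 2 SDs of the spot error, and the others were below it. Among the 11, the Gpam probe was below it too.

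Among 24 regulators of lipogenesis, all measured, the median log2 difference was 0.04 for 1SA and 0.00 for 2SA, and both changed sign under 1 of the 8 other ways of processing. Srebf1, which encodes SREBP1, had an intensity of 888 in WT, 839 in 1SA and 1028 in 2SA, with log2 differences of -0.01 and 0.07. Mlxipl differed by 0.05 and 0.10, and Nr1h3, the liver X receptor alpha, by 0.02 in each. RNA levels do not report the cleavage of SREBP proteins or the activity of ChREBP. Insig1, which retains SREBP in the endoplasmic reticulum and is itself an SREBP target, was the regulator with the largest difference. Its intensity was 371 in WT, 816 in 1SA and 1049 in 2SA, or log2 differences of 1.21 and 1.36, so both mutants were more than 2-fold above WT. Srebf2 had probes that disagreed, the brighter at -0.88 in 1SA and -0.09 in 2SA and the dimmer at 0.61 and 0.63.

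The sterol genes, the targets of SREBP2, stood on the same side of WT as the fatty acid genes. All 10 measured sterol genes were higher in 1SA, 9 of them by at least 1.5-fold, and 9 of 10 were higher in 2SA, 6 of them by that much. The shares of all genes higher by 1.5-fold were 3.08% in 1SA and 3.79% in 2SA. Their median log2 difference was 1.59 in 1SA and 0.90 in 2SA. Fdps, a synthase of the mevalonate pathway, had an intensity of 4207 in WT, 21095 in 1SA and 14216 in 2SA, or log2 differences of 2.40 and 1.62. Sqle, squalene epoxidase, differed by 2.15 and 1.79, Mvd by 1.95 and 1.51, and Hmgcs1 by 1.80 and 1.38. In 2SA all 10 were lower than in 1SA, with a median of -0.59, close to the -0.44 of the fatty acid genes.

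Of 18 other genes of fatty acid synthesis, elongation and desaturation, 2 were higher by 1.5-fold in 1SA and 1 in 2SA, with medians of 0.04 and 0.03. Among all genes, 3.08% and 3.79% were higher by that much. Acss2, which makes acetyl-CoA from acetate, had an intensity of 4054 in WT, 10017 in 1SA and 6279 in 2SA, or log2 differences of 1.38 and 0.50. A second Acss2 probe gave 1.33 and 0.54, so both probes had the order 1SA, 2SA, WT. Fads1, a desaturase of polyunsaturated fatty acids, differed by 0.86 and 0.34. Fads3 went another way, at 715 in WT, 626 in 1SA and 3076 in 2SA, or -0.11 and 1.97. None of the 9 measured NADPH genes beside Me1 passed 1.5-fold, and their medians were 0.19 in 1SA and 0.07 in 2SA.

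Over 18 other genes of triglyceride synthesis, which act before, at or after the step of Gpam, the median was -0.05 in 1SA and -0.04 in 2SA. Lpin1, a phosphatidate phosphatase, was the 1 gene of these higher by 1.5-fold in 1SA, at 0.63 against 0.01 in 2SA. Dgat1 and Dgat2, the acyltransferases that complete triglyceride, had log2 differences from WT of 0.19 and 0.15 for 1SA, and of 0.02 and -0.01 for 2SA. Gpat3, another glycerol phosphate acyltransferase, was lower in both, by -1.14 and -0.59, with intensities of 1069 in WT, 461 in 1SA and 781 in 2SA. The monoacylglycerol acyltransferase Mogat1 differed by -0.43 and -1.03, and Mogat2 by 0.53 in 1SA and -0.87 in 2SA.

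Genes of lipid droplets, lipases and VLDL assembly leaned lower, with 15 of 20 below WT in each mutant and medians of -0.10 and -0.15. Of all 13626 genes, 6851 were below WT in 1SA and 7688 in 2SA. Cidec, a protein of the droplet surface that favours large droplets, had an intensity of 634 in WT, 216 in 1SA and 249 in 2SA, a log2 difference of -1.48 in each. A second Cidec probe gave -1.26 and -0.98. G0s2, an inhibitor of the lipase Pnpla2, was lower in 1SA alone, at -1.13 against -0.03 in 2SA. Plin2, which coats droplets, differed by -0.83 and -0.28. For fatty acid uptake and activation, the medians of 13 genes were -0.09 and -0.03, and 1 gene passed 1.5-fold, Acsl3 at 0.71 in 1SA.

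**Figure D3:**
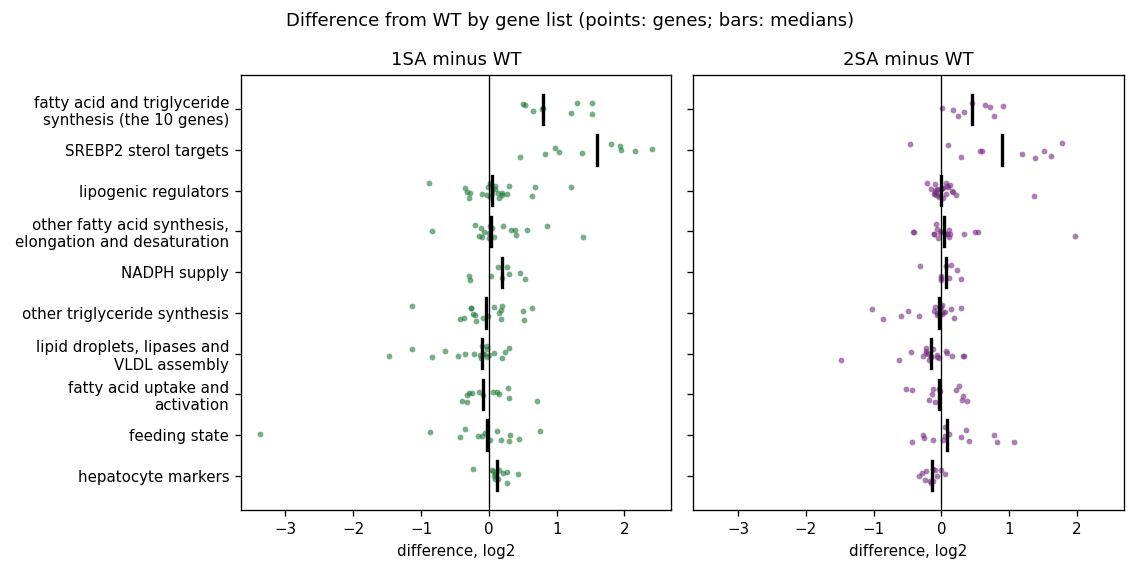
Log2 difference from WT of each measured gene in 10 gene lists, for 1SA on the left and 2SA on the right, with 1 point per gene and a bar at the median of each list. The fatty acid and triglyceride synthesis genes (median 0.79 and 0.45) and the sterol genes (1.59 and 0.90) stood to the right of 0, and the medians of the other lists lay between -0.15 and 0.19.

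Lipogenic genes follow meals and the time of day, and the labels give neither. Feeding state genes were therefore read on the same arrays, where their median over 14 measured genes was -0.02 in 1SA and 0.08 in 2SA. Pklr, a ChREBP target, differed by 0.44 and 0.11. The fasting genes were uneven. Cyp4a14, a PPAR alpha target, had an intensity of 7734 in WT, 709 in 1SA and 7117 in 2SA, or log2 differences of -3.37 and -0.26. Angptl4 differed by -0.86 in 1SA and 0.78 in 2SA, and Igfbp1, which insulin lowers, by 0.75 and 1.08. Of 12 measured clock genes, 10 were below WT in 1SA and 9 in 2SA, with medians of -0.07 and -0.24. Among all 13626 genes, 6851 and 7688 were below WT in turn. Nr1d1 differed by -0.67 and 0.82, and Arntl by -0.28 and 1.20. The part of feeding or sampling time in the result was not tested.

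Cell type markers were read in the same way. The hepatocyte markers summed to 6367 in WT, 6866 in 1SA and 5600 in 2SA in units of the 75th percentile. The 12 markers had medians of 0.12 and -0.14, which were 0.01 and -0.03 under quantile normalisation. Of the markers that define fat tissue, Adipoq, Plin1, Lep and Retn were not well above background on any array. The 8 adipocyte markers summed to between 1.76 and 2.68, and the 2 that were measured throughout went different ways in 1SA, with Adrb3 at 0.58 and -0.09 and Cfd at -0.95 and -1.53. The 7 Kupffer cell markers summed to 236.9, 179.3 and 136.0, with medians of -0.36 and -0.90. Of these, Marco differed by -1.21 and -1.59 and Clec4f by 0.45 and -1.56. The 5 bile duct markers had medians of -0.82 and -0.06, with Spp1 at -1.73 in 1SA and -0.31 in 2SA. Their median in 1SA ran from -1.73 to -0.17 over the ways of processing. Epcam and Krt7 were dim, with intensities of 32.4 and 30.7 in WT. Stellate cell markers had medians of -0.06 and -0.60, sinusoidal endothelial markers -0.11 in each, and blood markers 0.23 and 0.44. The blood markers summed to 59.5 in WT, 95.9 in 1SA and 73.1 in 2SA, the order in which most synthesis genes stood, with Hba-a1 at 0.90 and 0.45 and Ptprc at -0.61 and 0.53. The part of these cell types in the result was not tested.

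Over the 8 other ways of processing the arrays, each of the 9 genes stayed above WT in both mutants where it was measured. The median log2 difference ran from 0.75 to 0.90 in 1SA, from 0.45 to 0.55 in 2SA and from -0.47 to -0.35 for 2SA against 1SA. Fasn was 1.01 in 1SA and 0.68 in 2SA when the local background was modelled in place of Agilent's own correction. That processing also added an offset of 50 to each intensity. With the average of its probes, Acly was 0.50 in 1SA, 0.30 in 2SA and -0.20 for 2SA against 1SA.

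**Figure D4:**
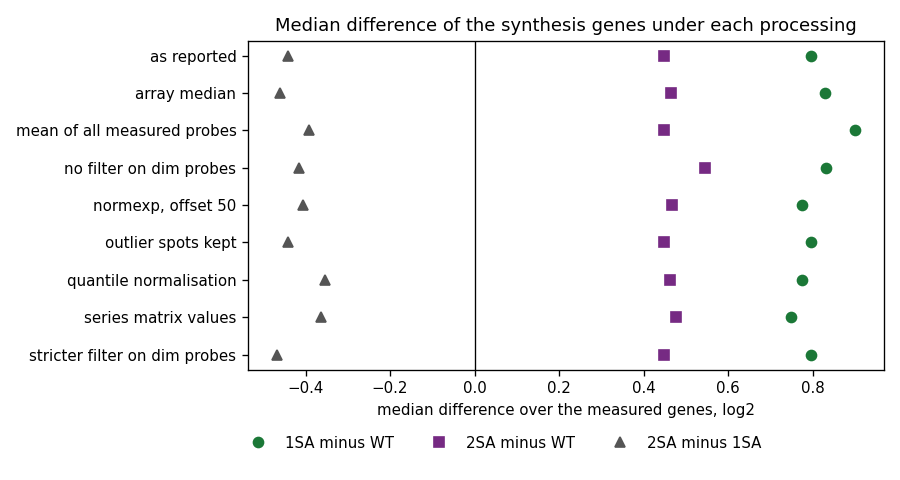
Median log2 difference over the measured synthesis genes under the reported processing and each of the 8 alternatives, for 1SA minus WT (green circles), 2SA minus WT (purple squares) and 2SA minus 1SA (grey triangles). The 1SA medians stayed between 0.75 and 0.90 and the 2SA medians between 0.45 and 0.55.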

How the data were processed

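Total RNA of mouse liver was labelled with Cy3 and hybridised to Agilent 8x60K mouse arrays, 1 per group. The authors scanned the arrays with Agilent Feature Extraction 10.10.1.1, and the deposited intensity of a spot is background-subtracted and not scaled between arrays. Per the file headers the design was placed on mm9. An array held 59305 non-control spots for 55681 probes. Spots marked as outliers (148 to 182 per array) were left out, none was saturated, and a probe's value was the mean log2 intensity of its spots, less that of the 75th percentile of its array. A probe counted as measured when at least 50% of its spots were well above background. Probes were named by RefSeq accession through a GRCm38.p6 gene table, used for names only, which matched 26762 probes. A gene was read from its brightest probe measured on all 3 arrays. Thresholds were 1.5-fold and, as an alternative, 2-fold. The genes named were the 10 members, 10 regulators and enzymes, and in each other list up to 5 genes that differed by 2-fold in any comparison. Of these, 2 genes are not reported here. Members and lists were chosen with earlier results of these data known, and Fads1, Plin2, Acsl3, Srebf2, Lpin1, Adrb3, Hba-a1 and the YAP targets after their values were seen. The scripts were tested on simulated data. Python 3.11.15, pandas 2.3.3, R 4.3.3 and limma 3.58.1 were used.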

Additional observations from a re-analysis of the deposited data

Results flagged for a closer look

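Among the synthesis genes and the genes named by the rule given under the processing, those that went opposite ways from WT by at least 1.5-fold in the 2 mutants were Angptl4, a fasting-induced inhibitor of lipoprotein lipase, and Nr1d1, a clock repressor. Angptl4 was lower in 1SA (-0.86) and higher in 2SA (0.78), a gap of 1.64 on the log2 scale between the mutants. Nr1d1 was lower in 1SA (-0.67) and higher in 2SA (0.82), a gap of 1.49. With 1 array per group these differences were not tested, and no synthesis gene showed opposite signs.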

How the results depend on the processing

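With 2-fold in place of 1.5-fold, the number of synthesis genes higher in 1SA fell from 7 to 4, that in 2SA from 4 to 0, and that lower in 2SA than in 1SA from 3 to 1. Where a gene was read as the average of its measured probes, the median difference in 1SA was 0.90 in place of 0.79. The other counts and medians of the synthesis genes moved by less than 1.5 times or less than the SD of a difference under quantile normalisation, scaling to the array median, normexp (offset 50), the authors' matrix, both filters on dim probes and keeping outlier spots. Of 210 single-gene differences recomputed, 200 moved by less than that SD, 10 moved more and 0 changed sign. Acly lost its 1.5-fold call in 1SA under quantile normalisation (0.57) and with the average of its probes (0.50). The 10 were Acly and Me1 with the mean of all probes, Fasn and Gpam under normexp, and Acly, Scd1 and Thrsp under quantile normalisation. The shares of all genes at least 1.5-fold higher in 1SA and 2SA were 1.44% and 2.01% under normexp, and 6.21% and 6.58% without a filter on dim probes. Without that filter Pnpla3 was 0.87 in 1SA and 0.77 in 2SA, values that rest on spots near background. Printed list medians that changed sign under some alternative were those of regulators (1SA and 2SA), other fatty acid synthesis, feeding state and stellate cell markers (1SA) and fatty acid uptake (2SA). No paired analysis was possible because there was 1 array per group, and leaving out a replicate or blocking on the slide was not possible for the same reason. The number of arrays limits the precision, since spot error leaves out differences between mice.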
